A study of Mus musculus with 9 samples.

Results

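The 40 genes described here encode proteins of mitosis and of the mitotic spindle: the cyclins and kinases that start mitosis, the spindle assembly checkpoint, the kinetochore, condensin, spindle motors and the machinery of cytokinesis. They were chosen by name from knowledge of these functions, with earlier results of these data known. They were found in the deposited table by matching mouse gene symbols to its Entrez identifiers. All 40 were matched among 27179 genes, and all 40 passed the filter on low counts that left 12484 genes for testing. Each had between 468 and 18424 counts in every library, the lowest for Cdc25c and the highest for Top2a.

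RNA was sequenced from HPC7, a mouse line of blood stem and progenitor cells that depends on stem cell factor. The line was kept in RPMI with 100 ng/ml mouse stem cell factor, 10% fetal calf serum and 0.05 mM 2-mercaptoethanol. All groups received the MSCV-IRES-GFP retrovirus, and cells positive for its fluorescent marker were sorted 1 week afterwards. The 3 groups of 3 libraries differed in the insert: no gene (MIG-0, here empty vector), wild-type Snai1 (MIG-wt), or a Snai1 cDNA with a phenylalanine to alanine change at residue 5 (MIG-MUT, here mutant), which impairs binding of the histone demethylase Lsd1. Snai1 is a zinc finger repressor best known from epithelial-mesenchymal transition. The insert is expressed from the vector, so the model is one of overexpression in a single cell line. The labels do not state whether the replicates of a group were separate transductions or cultures, so each p-value covers only library-to-library spread, which may be technical.

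Mitosis genes are transcribed in a wave that peaks in G2 and M phase, while DNA replication genes peak earlier, around the start of S phase. The late wave is driven by B-Myb with the MuvB core and by FoxM1, and in resting or arrested cells the same promoters are held off by the DREAM complex, which binds the cell cycle homology region (CHR), often next to binding sites of NF-Y. Because the RNAs are low outside this window, their level in a bulk sample follows the share of cycling cells. Fewer cells in mitosis and less of each RNA per cell cannot be told apart in these libraries.

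Motif letters of these kinds were held by more of the promoters than of all promoters. RefSeq promoter windows of GRCm38.p6, from 250 bases before to 50 after the first listed start, were held for 33 of the 40 genes and were searched on both strands for TTTGAA and TTTAAA (CHR type), CCAAT (the NF-Y box), CAGGTG (an E-box of the type that Snai1 binds), and TTTGGCGC and TTTCGCGC (E2F type). A CHR-type match was present in 28 of 33 windows (84.8%), against 27.8% of all 27025 windows of the same length and 8 of 37 windows (21.6%) of DNA replication genes. CCAAT was present in 75.8%, against 37.9% of all windows, and at least 2 copies in 51.5%, against 12.2%. Both a CHR-type match and CCAAT were present in 23 windows (69.7%), against 10.9%. The E-box CAGGTG was found in 3 windows (9.09%), against 20% of all windows: in Nusap1 at position -2 from the start, in Ect2 at -209 and in Kif20b at 43. The E2F-type letters were found once each, TTTCGCGC in Cdk1 at -131 and TTTGGCGC in Ncapd2 at -8 (each 3.03%, against 0.318% and 0.537%).

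**Figure D1:**
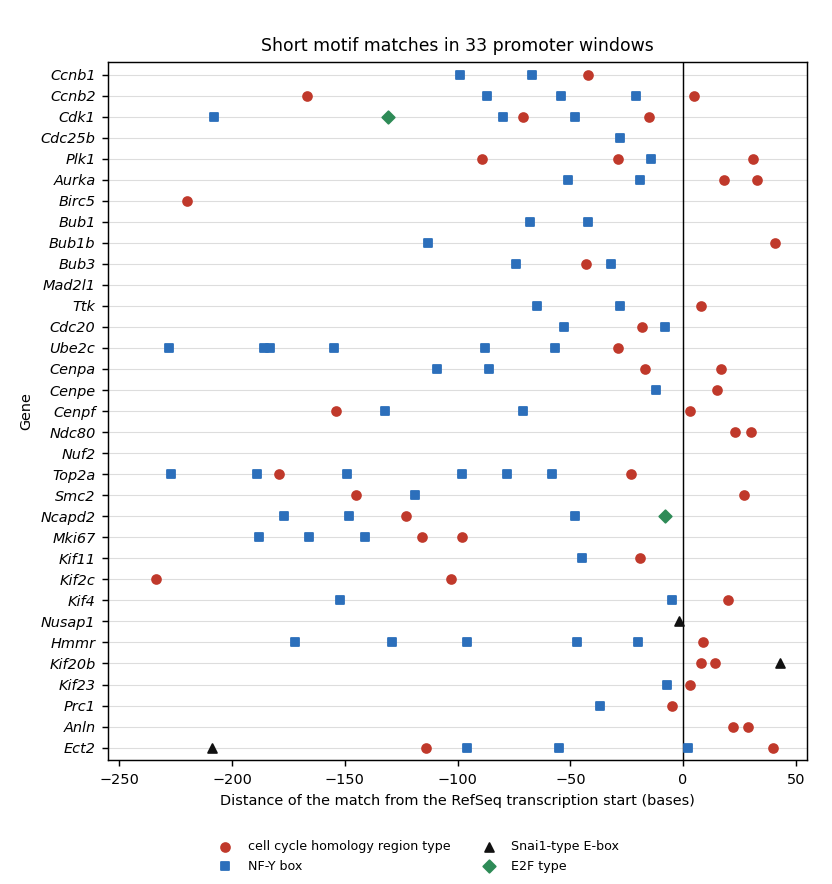
Motif matches in the RefSeq promoter windows of 33 mitosis and spindle genes, 1 line per gene, by distance in bases from the transcription start (vertical line). CHR-type matches (circles) are in 28 windows, CCAAT boxes (squares) in 25 and the E-box CAGGTG (triangles) in 3, and the windows of Mad2l1 and Nuf2 hold none.

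Promoters of 4 genes are shown from 120 bases before to 10 after the start, because they pair genes that later differ in direction. Cdk1 (chr10:69352903-69353032, minus strand) rose with wild-type Snai1 and Ube2c (chr2:164769809-164769938, plus strand) fell, and both hold CHR-type and CCAAT letters. Mad2l1 (chr6:66535101-66535230, plus strand) rose and Nusap1 (chr2:119618178-119618307, plus strand) fell, and neither holds a CHR-type or CCAAT match anywhere in its window. Capitals mark the matches. The CHR type reads TTTGAA, or TTCAAA where it lies on the other strand. The NF-Y box reads ATTGG here, since it lies on the other strand in each case. The E-box reads CAGGTG.
Cdk1: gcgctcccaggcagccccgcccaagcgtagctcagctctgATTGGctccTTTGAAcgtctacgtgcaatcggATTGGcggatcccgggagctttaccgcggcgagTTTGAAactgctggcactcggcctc
Ube2c: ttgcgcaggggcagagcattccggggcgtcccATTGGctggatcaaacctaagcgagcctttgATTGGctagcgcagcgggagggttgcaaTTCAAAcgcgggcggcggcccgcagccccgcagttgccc
Mad2l1: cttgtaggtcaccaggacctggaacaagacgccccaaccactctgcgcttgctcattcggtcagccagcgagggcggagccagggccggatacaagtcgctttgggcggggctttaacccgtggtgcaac
Nusap1: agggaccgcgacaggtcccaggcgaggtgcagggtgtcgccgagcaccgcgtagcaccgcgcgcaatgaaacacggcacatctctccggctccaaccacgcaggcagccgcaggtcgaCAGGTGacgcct
Such a match is a description of letters and not a measured site. Of the 11 genes higher with wild-type Snai1 than with empty vector, 8 had a window, of which 6 held a CHR-type match, 5 CCAAT and 0 CAGGTG. All 4 genes that were lower had a window, of which 3 held a CHR-type match, 3 CCAAT and 2 CAGGTG (Nusap1 and Ect2). Of the 25 that were not called, 21 had a window, of which 19 held a CHR-type match, 17 CCAAT and 1 CAGGTG. Of all windows, 20% held CAGGTG, and binding of Snai1 to any of these letters was not tested.

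Total counts lay between 18332451 and 20860314 per library, and the 40 genes took 0.500 to 0.669% of them. Snai1 itself was at 0.698 to 1.06 CPM (counts scaled to library size, with TMM factors) with empty vector, 425 to 562 with wild type and 415 to 493 with mutant, and the log2 difference between wild type and mutant was 0.10 (adjusted p 0.479). These levels fit the labels for the presence of the insert but do not tell the mutant from the wild type. Of 12 blood progenitor markers, all 12 had at least 10 counts in every group. By a chi-square of the counts, a pair of libraries stood apart from their replicates. Wild-type replicate 1 differed from replicates 2 and 3 by a chi-square of 47.2 and 55.9 per degree of freedom over all genes, where replicates 2 and 3 differed by 5.35. Empty vector replicate 1 differed from replicates 2 and 3 by 73.4 and 71.7, where replicates 2 and 3 differed by 5.00. A feature without a symbol took 3.62% of the counts of empty vector replicate 1. The chi-square is a sum that includes this feature, whose part in it was not separated. It therefore does not show how widely the genes of that library differed. Over all tested genes, empty vector replicate 1 was the lowest control for 37.1% and the highest for 33.2%. The counts of called genes with wild type are given with and without wild-type replicate 1 and empty vector replicate 1.

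Mitosis and spindle genes did not move as 1 block with wild-type Snai1. Against empty vector, 11 of the 40 were higher and 4 lower at an adjusted p under 0.05 in edgeR's quasi-likelihood test, and 25 were not called. Among all tested genes, 25.2% were called higher and 24.3% lower, 49.4% in all, so the share of higher genes (27.5%) was close to the background and the share of lower genes (10%) was below it. The changes were small: log2 fold changes ran from -0.49 (Ube2c) to 0.49 (Birc5), with a median of 0.05 and a median size of 0.15, against 0.22 for all genes at or above the level of the least abundant of the 40. The 3 wild-type libraries lay above all 3 controls for 6 genes (28.1% of all genes) and below them for 4 (28.5%). An exact permutation test of 3 libraries against 3 cannot give a p below 0.1, so single genes are tested only in the fit across all genes.

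The 3 wild-type libraries were not alike. Wild-type replicate 1 had the lowest level of the 3 wild-type libraries for 39 of the 40 genes (97.5%, against 43.7% of all genes), the exception being Bub3. Its median over the 40 was -0.23 on the log2 CPM scale relative to the control mean, while wild-type replicates 2 and 3 stood at 0.17 and 0.19. The control libraries stood at -0.08, 0.01 and 0.07 and the mutant libraries at 0.00, -0.05 and 0.02. Relative to the range of the 3 controls, 25 genes lay below it in wild-type replicate 1 and 6 above. In wild-type replicates 2 and 3, 28 and 26 lay above it and 5 and 4 below. Large shares of all tested genes also lay outside this range. These were 43.7% below and 40.7% above in wild-type replicate 1. In replicate 2 they were 40.3% below and 41.8% above, and in replicate 3 41.9% and 41.3%. For 10 genes (25%, against 4.78% of all genes) replicate 1 lay below every control and replicates 2 and 3 above every control: Ccnb2, Aurka, Tpx2, Aurkb, Bub1, Cenpa, Ndc80, Top2a, Kif11 and Kif20a. The coefficient of variation of the 40 genes had a median of 17.3% among wild-type libraries, 6.39% among controls and 3.52% among mutant libraries. All genes at or above the level of the least abundant of the 40 had medians of 7.85, 4.18 and 4.27%. DNA replication genes, chosen as a comparison, stood at a median of 0.04 in wild-type replicate 1 and 0.12 in both other wild-type libraries. They too were mostly lowest in replicate 1 of the 3 wild-type libraries, for 38 of 47 genes (80.9%). The median gap of replicate 1 to the mean of the other two was -0.45 on the log2 scale for the 40 genes and -0.11 for DNA replication genes.

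**Figure D2:**
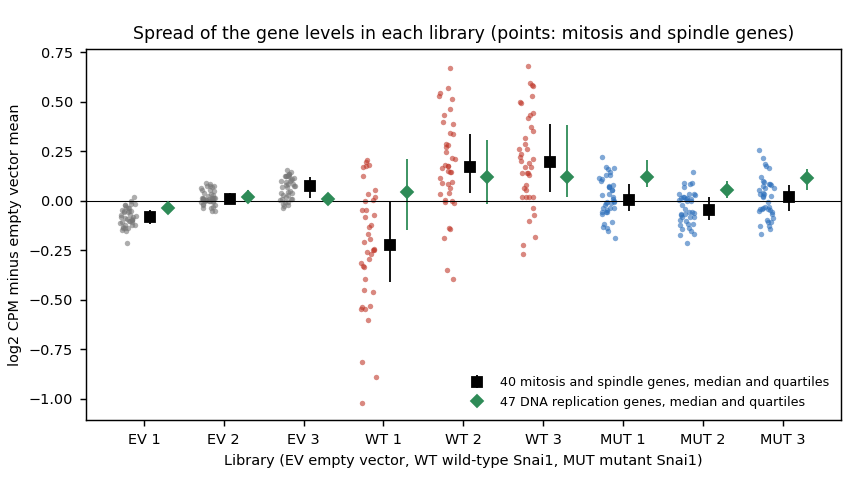
Level of each of the 40 genes (points) in each library, as log2 CPM minus the empty vector mean (EV empty vector, WT wild-type Snai1, MUT mutant Snai1), with the median and quartiles of the 40 (squares) and of 47 DNA replication genes (diamonds). The 40 genes are centred at -0.23 in wild-type replicate 1 and at 0.17 and 0.19 in wild-type replicates 2 and 3.

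Without wild-type replicate 1, 22 genes rose and 3 fell, with a median of 0.19, where 29.9% and 28.8% of all tested genes were called higher and lower (58.7% in all). Of the 15 genes called with all libraries, 14 kept their call and direction, Ect2 was lost (adjusted p 0.0579), and 11 were gained: Ccnb2, Tpx2, Aurkb, Bub1, Ttk, Cenpa, Ndc80, Top2a, Hmmr, Kif20b and Anln. Without empty vector replicate 1, in contrast, 4 genes were higher and 3 lower, with a median of 0.01. Of all tested genes, 20.7% and 21.3% were then called higher and lower. That library had the lowest control level for 37 of the 40 genes (92.5%, against 37.1% of all genes). Leaving out both, a setting chosen after seeing the data, gave 17 higher and 5 lower with a median of 0.12. Of all tested genes, 28% and 28.7% were called higher and lower in this setting. Birc5, Mad2l1, Cenpe and Nuf2 were higher and Nusap1 lower in all 15 alternative settings run. The share of all tested genes called in every setting was not counted, so these genes are not set against a background.

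**Figure D3:**
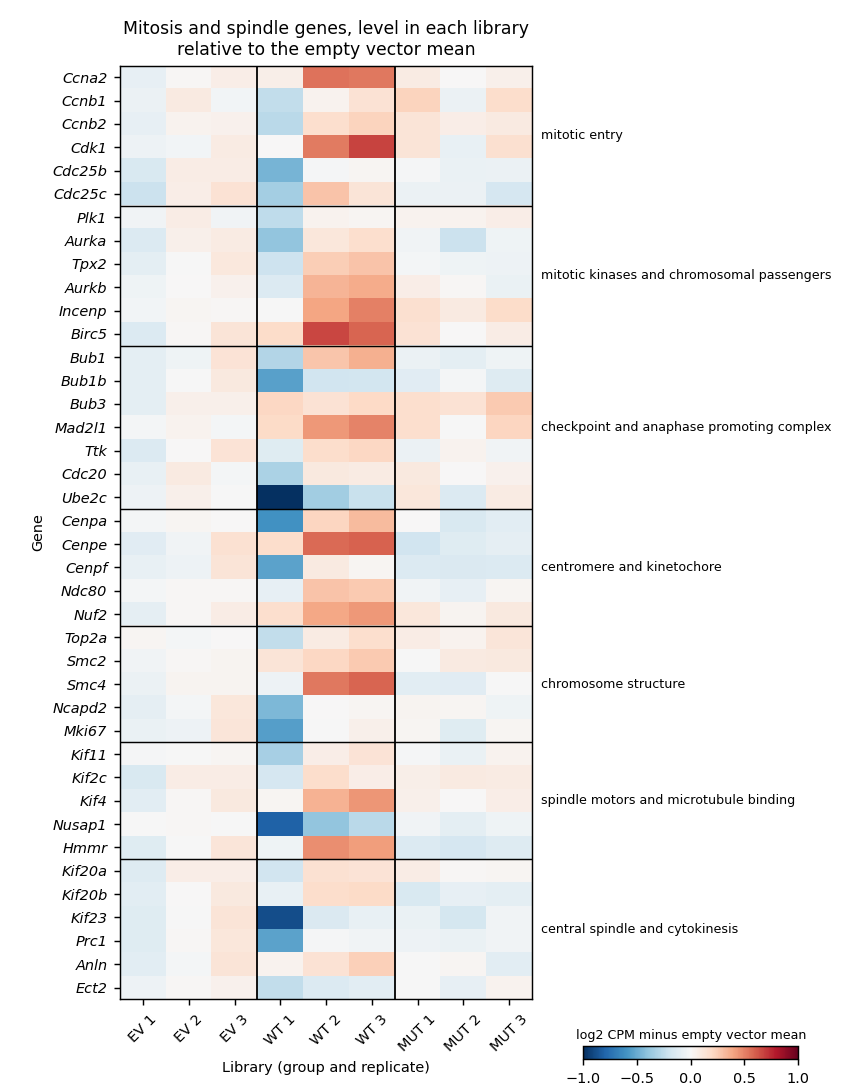
Log2 CPM of each gene in each library minus its empty vector mean, with genes ordered by role (EV empty vector, WT wild-type Snai1, MUT mutant Snai1). The wild-type replicate 1 column is lower than the other 2 wild-type columns in all genes but Bub3. Ube2c, Nusap1, Bub1b, Ect2, Kif23 and Prc1 are below 0 in all 3 wild-type libraries.

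Among genes of mitotic entry, the kinase Cdk1 and its partner cyclin A2 rose with wild-type Snai1, while its B-type cyclins and the phosphatases that activate it were not called. Cdk1 (gene 12534) was at 159, 161 and 175 CPM with empty vector, 165, 236 and 264 with wild type and 180.3, 157 and 185 with mutant. Wild-type replicates 2 and 3 lay above every other library and replicate 1 among the controls. The log2 fold change was 0.43 (SE 0.15, adjusted p 0.0377), or 0.60 (adjusted p 5.57e-06) without wild-type replicate 1. Ccna2 (gene 12428), which acts in S phase and at mitotic entry, was at 140.0, 149 and 155 CPM with empty vector, 154, 216 and 214 with wild type and 156, 148 and 154 with mutant. Its wild-type replicate 1 also lay within the control range, and the log2 fold change was 0.39 (SE 0.11, adjusted p 0.0155). Ccna2 overlaps Exosc9 in the annotation; for this and the other overlaps named here, reads of both genes cannot be told apart if strand was not used in counting. Ccna2 was no longer called without empty vector replicate 1 or wild-type replicate 2 (adjusted p 0.063 and 0.0554). The call of Cdk1 was lost without any 1 of the 3 controls, wild-type replicate 2 or 3 or mutant replicate 1 (adjusted p 0.0535 to 0.107).

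Ccnb1 (gene 268697), the cyclin that drives Cdk1 through metaphase, was at 75.3, 83.2 and 76.9 CPM with empty vector, 66.0, 80.5 and 86.5 with wild type and 91.4, 75.3 and 88.5 with mutant. The 3 groups overlapped, and the log2 fold change with wild type was -0.02, with a 95% interval of -0.25 to 0.22. Such intervals come from the fit and are not adjusted for the number of genes. Cdc25b, a phosphatase that removes inhibitory phosphates from Cdk1, was at 50.5, 59.1 and 59.0 CPM with empty vector, 40.6, 55.6 and 56.7 with wild type and 55.5, 53.4 and 53.9 with mutant. Only wild-type replicate 1 fell outside the control range, below it, and the log2 fold change was -0.14 (-0.40 to 0.12). Ccnb2 and Cdc25c had log2 fold changes of 0.06 and 0.04, with intervals of -0.19 to 0.30 and -0.29 to 0.37. Ccnb2 was called without wild-type replicate 1 (0.19, adjusted p 0.00751).

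Among mitotic kinases and chromosomal passengers, 2 of 6 were higher and 0 lower. Both belong to the chromosomal passenger complex, in which Birc5 (survivin) and Incenp tether the kinase Aurkb to centromeres and later to the spindle midzone. Birc5 (gene 11799) was at 64.7, 71.9 and 77.7 CPM with empty vector, 80.8, 114 and 107 with wild type and 78.8, 71.3 and 75 with mutant. All 3 wild-type libraries lay above all 6 others. It had the highest log2 fold change of the 40 genes, 0.49 (SE 0.12, adjusted p 0.00622). Incenp (gene 16319), the scaffold of the complex, was at 163, 169 and 167 CPM with empty vector, 166, 219 and 235 with wild type and 186, 177 and 189 with mutant. Wild-type replicate 1 lay among the controls and the mutant libraries lay above them. The log2 fold change was 0.31 (SE 0.11, adjusted p 0.0311) with wild type and 0.15 (-0.09 to 0.38) with mutant. The Incenp call was lost without any 1 of the controls or without wild-type replicate 2 or 3 (adjusted p 0.0647 to 0.0953).

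Aurkb (gene 20877), the kinase of the complex, was at 81.0, 84.0 and 86.0 CPM with empty vector, 76.2, 106 and 108 with wild type and 87.8, 84.3 and 79.9 with mutant. Wild-type replicate 1 lay below every other library and replicates 2 and 3 above them all. The log2 fold change of 0.21 (-0.05 to 0.47) was not called (adjusted p 0.157), and without wild-type replicate 1 it was 0.36 (adjusted p 4.83e-05). Plk1 (gene 18817), which acts from mitotic entry to cytokinesis, was at 54.2, 58.6 and 54.3 CPM with empty vector, 46.5, 56.9 and 56.4 with wild type and 57, 57 and 58.3 with mutant. Apart from wild-type replicate 1, every library lay between 54.2 and 58.6 CPM, and the log2 fold change was -0.06 (-0.24 to 0.12), and 0.02 (adjusted p 0.746) without that replicate. Aurka, the spindle pole kinase, and its activator Tpx2 had log2 fold changes of -0.02 (-0.32 to 0.28) and 0.12 (-0.13 to 0.38), and Tpx2 was called without wild-type replicate 1 (0.26, adjusted p 0.000583). Aurka overlaps Cstf1 in the annotation.

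The checkpoint genes split in direction. The spindle assembly checkpoint delays anaphase until all kinetochores are attached, by holding back the anaphase promoting complex and its activator Cdc20. Mad2l1 (gene 56150), the checkpoint protein that binds Cdc20, was at 80.3, 83.4 and 80.1 CPM with empty vector, 93, 109.6 and 114 with wild type and 91.1, 81.1 and 94.5 with mutant. All wild-type libraries lay above all controls, and the log2 fold change was 0.38 (SE 0.08, adjusted p 0.00392). Bub3 (gene 12237), which docks Bub1 and Bub1b at kinetochores, was at 144, 159 and 159.6 CPM with empty vector, 178, 170.3 and 177 with wild type and 173, 170.5 and 184 with mutant. Both Snai1 groups lay above all controls, and wild type gave a log2 fold change of 0.18 (standard error 0.06, adjusted p 0.0233). The Bub3 call did not hold without empty vector replicate 1 (adjusted p 0.124).

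Bub1b (gene 12236), whose protein BubR1 is part of the inhibitor of the anaphase promoting complex, was at 146, 156 and 168 CPM with empty vector, 107, 137 and 138 with wild type and 144, 154 and 143 with mutant. The wild-type libraries lay below all others, and the log2 fold change was -0.30 (SE 0.09, adjusted p 0.0238). Ube2c (gene 68612), the ubiquitin-conjugating enzyme that works with the anaphase promoting complex, was at 78.0, 83.8 and 80.5 CPM with empty vector, 39.7, 63.3 and 69.2 with wild type and 87.4, 73.5 and 85.7 with mutant. Its wild-type libraries too were below all others, with replicate 1 far the lowest, and the log2 fold change was -0.49 (SE 0.17, adjusted p 0.0385). Without wild-type replicate 1 the Ube2c change was -0.29 (adjusted p 0.00351) and that of Bub1b -0.19 (adjusted p 0.00987). The Bub1b call was lost without empty vector replicate 2 or 3 (adjusted p 0.0614 and 0.0825), and the Ube2c call without any 1 of the controls or mutant replicate 1 or 3 (adjusted p 0.0526 to 0.0985). The kinases Bub1 and Ttk and the activator Cdc20 had log2 fold changes of 0.13 (-0.19 to 0.46), 0.09 (-0.12 to 0.31) and -0.04 (-0.26 to 0.18). Bub1 and Ttk were called without wild-type replicate 1, at 0.31 (adjusted p 0.000278) and 0.19 (adjusted p 0.0323). Cdc20 overlaps Elovl1 in the annotation.

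At the centromere and kinetochore, 2 of 5 genes were higher and 0 lower. Cenpe (gene 229841), a kinesin that moves chromosomes to the spindle equator, was at 94.6, 99.7 and 114 CPM with empty vector, 116, 152 and 155 with wild type and 89.8, 94.3 and 96.2 with mutant. The wild-type libraries lay above all others, and the log2 fold change was 0.45 (SE 0.11, adjusted p 0.00602). Nuf2 (gene 66977), a subunit of the Ndc80 complex that binds spindle microtubules, was at 100.4, 107 and 113 CPM with empty vector, 120.1, 139.7 and 144 with wild type and 115, 109 and 114 with mutant. Again no wild-type library overlapped another group, with a log2 fold change of 0.33 (standard error 0.07, adjusted p 0.00391).

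Ndc80 (gene 67052), the partner of Nuf2 in the same complex, was at 93.8, 95.8 and 95.7 CPM with empty vector, 89.9, 116 and 114 with wild type and 92.6, 89.7 and 96.2 with mutant. Its wild-type replicate 1 lay below the controls and replicates 2 and 3 above them. The log2 fold change of 0.17 (-0.03 to 0.36) was not called (adjusted p 0.146), and was 0.28 (adjusted p 0.000238) without wild-type replicate 1. Cenpa, the histone H3 variant of centromeres, was at 53.2 CPM in wild-type replicate 1, beside 94.1 and 101 in replicates 2 and 3 and 79.7 to 81.8 in the controls. Its log2 fold change was 0.03 (-0.41 to 0.47), and 0.27 (adjusted p 0.00107) without that replicate. Cenpf, a large kinetochore protein, had a log2 fold change of -0.12 (-0.43 to 0.19).

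In chromosome structure, the SMC subunits of condensin rose, while its non-SMC subunit, the topoisomerase and Ki-67 were not called. Smc2 (gene 14211) was at 236, 244 and 247 CPM with empty vector, 265, 280.5 and 291 with wild type and 242, 257 and 259 with mutant. The wild-type libraries lay above all others and close together, with a log2 fold change of 0.20 (standard error 0.05, adjusted p 0.0107), and the call did not hold without empty vector replicate 1 (adjusted p 0.0523). Smc4 (gene 70099), the partner of Smc2, was at 191, 202 and 202 CPM with empty vector, 192, 285 and 297 with wild type and 184, 183 and 197 with mutant. Here wild-type replicate 1 was among the controls and replicates 2 and 3 far above. The log2 fold change was 0.38 (SE 0.14, adjusted p 0.0424), and 0.56 (adjusted p 9.36e-08) without wild-type replicate 1. The Smc4 call was lost without any 1 of the other 8 libraries (adjusted p 0.0576 to 0.132). The precursors of miR-15b and miR-16-2 lie within Smc4.

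Top2a (gene 21973), which untangles DNA before segregation, was at 832, 810.4 and 822 CPM with empty vector, 693, 871 and 924 with wild type and 863, 839.9 and 892 with mutant. Mki67 (gene 17345), the proliferation marker that coats mitotic chromosomes, was at 516, 522 and 590.0 CPM with empty vector, 371, 541 and 562 with wild type and 548, 498 and 550.1 with mutant. Ncapd2, the non-SMC subunit, was at 413, 435 and 476 CPM with empty vector, 322 in wild-type replicate 1, 442 and 446 in the other wild-type libraries and 450.2, 446 and 427 with mutant. All 3 genes were lower in wild-type replicate 1 than in any other library. Their log2 fold changes were 0.01 (-0.19 to 0.22), -0.14 (-0.45 to 0.16) and -0.13 (-0.38 to 0.12) in that order. Without wild-type replicate 1, Top2a was called at 0.13 (adjusted p 0.0311), while Mki67 stood at 0.02 (adjusted p 0.758) and Ncapd2 at 0.01 (adjusted p 0.897).

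**Figure D4:**
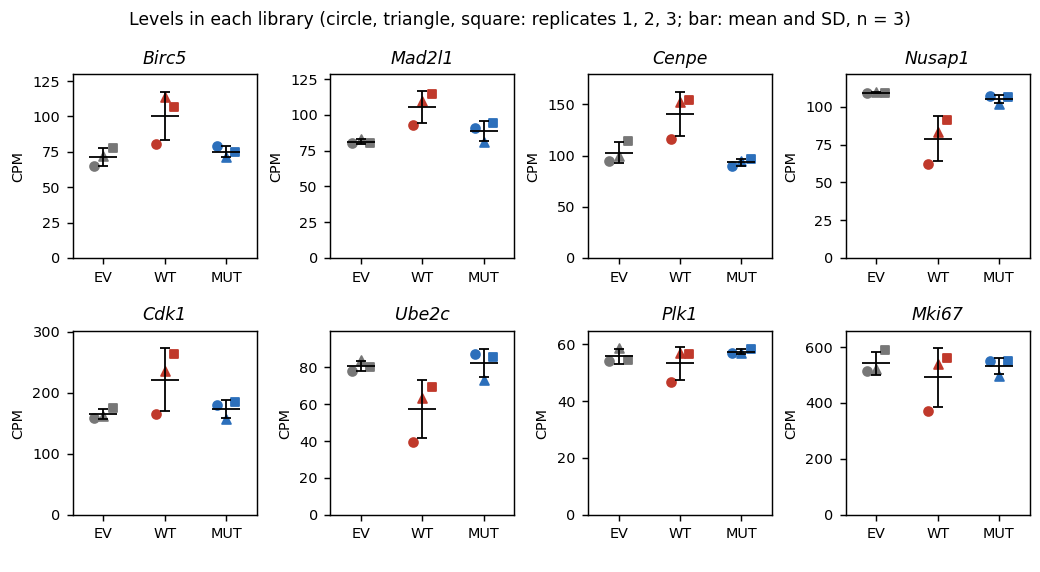
CPM of 8 genes in each library (circle, triangle and square for replicates 1, 2 and 3), with mean and SD of 3 libraries, for empty vector (EV), wild-type (WT) and mutant (MUT) Snai1. Birc5, Mad2l1 and Cenpe are above and Nusap1 below the controls in all 3 wild-type libraries, Cdk1 is above them in 2, and in Plk1 and Mki67 wild-type replicate 1 alone is low.

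Among spindle motors and microtubule-binding proteins, 1 gene of 5 was higher and 1 lower. Nusap1 (gene 108907), which bundles spindle microtubules around chromosomes, was at 109, 110.2 and 109 CPM with empty vector, 62.4, 83.4 and 91.1 with wild type and 107, 102 and 106 with mutant. The wild-type libraries lay far below all others, which were within a few CPM of each other, and the log2 fold change was -0.47 (SE 0.11, adjusted p 0.00563). Without wild-type replicate 1 it was -0.33 (adjusted p 7.5e-05). Nusap1 overlaps Oip5 in the annotation. Kif4 (gene 16571), a kinesin on chromosome arms and the central spindle, was at 71.4, 77.6 and 82.1 CPM with empty vector, 77.9, 97.7 and 105 with wild type and 79.9, 77.3 and 80.5 with mutant. Wild-type replicates 2 and 3 lay above all other libraries, replicate 1 within the controls, and the log2 fold change was 0.28 (SE 0.10, adjusted p 0.0405). The Kif4 call was lost without empty vector replicate 1 or 2, wild-type replicate 2 or 3, or any 1 of the mutant libraries (adjusted p 0.0587 to 0.152).

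Hmmr (gene 15366), a spindle pole protein also known as a hyaluronan receptor, was at 64.1, 69.8 and 76.1 CPM with empty vector, 67.6, 96.4 and 93.4 with wild type and 63.5, 62.1 and 63.9 with mutant. The wild-type libraries overlapped the controls but not the mutant libraries, which lay below every other library. Against empty vector the log2 fold change was 0.29 (SE 0.12) and not called (adjusted p 0.0673); it was called without wild-type replicate 1 (0.44, adjusted p 2.6e-05). The motors Kif11, which slides spindle poles apart, and Kif2c, which takes microtubules apart at kinetochores, had log2 fold changes of -0.03 (-0.25 to 0.20) and 0.03 (-0.18 to 0.23).

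Of the 6 genes of the central spindle and cytokinesis, 0 were higher and 1 was lower. Ect2 (gene 13605), the exchange factor that activates RhoA at the cleavage site, was at 116, 121 and 124 CPM with empty vector, 101, 109 and 112 with wild type and 120.3, 114 and 123 with mutant. The wild-type libraries lay below all others by a small margin, and the log2 fold change was -0.16 (SE 0.06, adjusted p 0.0393). Its call was lost without any 1 of 6 libraries, namely empty vector replicates 2 and 3, wild-type replicates 1 and 2 and mutant replicates 1 and 3 (adjusted p 0.0517 to 0.115). A non-coding gene in the table, 1700125G22Rik, overlaps Ect2. Kif23 (gene 71819), the kinesin of centralspindlin, was at 71.1, 76.9 and 84.4 CPM with empty vector, 41.7, 69.99 and 73.6 with wild type and 73.8, 68.5 and 75.5 with mutant. Only wild-type replicate 1 stood clear of the other groups, and the log2 fold change of -0.33 (-0.73 to 0.08) was not called (adjusted p 0.161).

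Kif20b (gene 240641), a kinesin of the midzone, was at 155, 167 and 179 CPM with empty vector, 159, 188 and 190.4 with wild type and 150.2, 158 and 156 with mutant. The wild-type libraries lay above all mutant libraries, while replicate 1 was within the control range, and against empty vector the log2 fold change was 0.10 (-0.07 to 0.27). Anln (gene 68743), anillin of the contractile ring, was at 62.9, 66.8 and 74.0 CPM with empty vector, 69.3, 75 and 79.7 with wild type and 67.4, 68.7 and 62.9 with mutant. Its order was the same, wild type above mutant and overlapping the controls, with a log2 fold change of 0.14 (-0.04 to 0.31). Kif20a, a kinesin of the midzone, and Prc1, which crosslinks midzone microtubules, had log2 fold changes of 0.04 (-0.17 to 0.25) and -0.18 (-0.45 to 0.10). Without wild-type replicate 1, Kif20b and Anln were called at 0.18 (adjusted p 0.00739) and 0.19 (adjusted p 0.0296). Kif20a overlaps Brd8 and Cdc23, Prc1 overlaps Rccd1 and Anln overlaps 9530077C05Rik in the annotation.

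**Figure D5:**
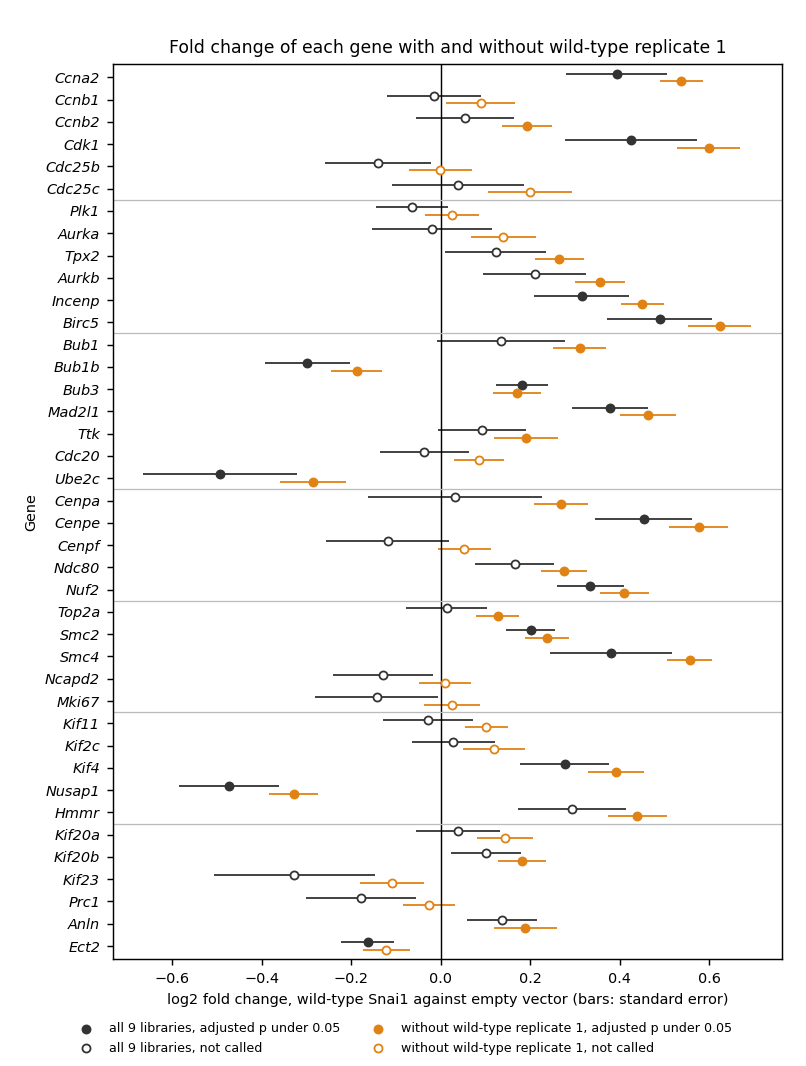
Log2 fold change of each of the 40 genes with wild-type Snai1 against empty vector, with its standard error, in the fit of all 9 libraries (black) and without wild-type replicate 1 (orange); filled points have an adjusted p under 0.05. Removal of the replicate moves every gene but Bub3 to the right, from 11 to 22 genes called higher and from 4 to 3 called lower.

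With mutant Snai1, 0 of the 40 genes were called against empty vector, where 1 of all 12484 tested genes was, Snai1 itself (0.00801%). At an unadjusted p under 0.05 there was 1 of the 40, Bub3 (p 0.0077, adjusted p 0.980), against 603 of all genes, and DESeq2 also called 0 of the 40. The log2 fold changes ran from -0.15 (Hmmr) to 0.19 (Bub3) with a median of -0.02. The mutant libraries lay above all controls for 4 genes (Ccnb2, Incenp, Bub3 and Top2a; 8.53% of all genes) and below them for 3 (Cenpf, Nusap1 and Hmmr; 9.04%). These counts are of genes that did not pass the test, and the interval of Bub3 was 0.06 to 0.32. For the genes that rose or fell with wild type, the mutant's log2 fold changes were 0.07 (-0.19 to 0.33) for Birc5, 0.13 (-0.06 to 0.32) for Mad2l1, -0.14 (-0.38 to 0.11) for Cenpe, 0.08 (-0.09 to 0.24) for Nuf2, -0.06 (-0.31 to 0.19) for Nusap1 and 0.02 (-0.36 to 0.41) for Ube2c. Wild type and mutant were set against the same 3 controls, so only their direct comparison tests whether they differ.

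In that direct comparison, 8 of the 40 genes were higher and 2 lower with wild type than with mutant, where 24.5% and 23.4% of all tested genes were called higher and lower (47.9% in all). The median log2 difference was 0.10, and the wild-type libraries lay above all mutant libraries for 7 genes (27.5% of all genes) and below them for 5 (28.3%). Cenpe differed most, by 0.59 (SE 0.11, adjusted p 0.00139), followed by Smc4 (0.46, adjusted p 0.0201), Hmmr (0.44, adjusted p 0.0124), Birc5 (0.42, adjusted p 0.0143), Ccna2 (0.35, adjusted p 0.0271), Nuf2 (0.26, adjusted p 0.0161), Mad2l1 (0.25, adjusted p 0.0324) and Kif20b (0.21, adjusted p 0.0438). The lower genes were Ube2c (-0.52, adjusted p 0.0322) and Nusap1 (-0.41, adjusted p 0.0117). Cdk1 had a difference of 0.35 that was not called (0.02 to 0.68, adjusted p 0.0777). Bub3 had a difference of -0.01 (-0.14 to 0.12). Only Cenpe, Hmmr and Nusap1 were called in all 15 alternative settings of this comparison. Here too the share over all tested genes was not counted.

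Wild-type replicate 1 again moved the counts. Without it, 23 genes were higher and 2 lower than with mutant, where 29.7% and 28.2% of all tested genes were called higher and lower (57.9% in all). All 10 calls were kept in direction, and 15 were gained, among them Cdk1 (0.52, adjusted p 2.14e-05), Bub1 (0.38, adjusted p 4.36e-05), Aurkb (0.35, adjusted p 5.97e-05) and Cenpa (0.35, adjusted p 0.000103). Leaving out wild-type replicate 2 or 3 instead gave 2 and 3 higher genes, where 22.1% and 22.7% of all tested genes were called higher. Leaving out mutant replicate 2 gave 2 higher and 3 lower, where 21% and 19.5% of all tested genes were called higher and lower. The added gene was Ect2 (-0.18, adjusted p 0.0475). The calls of Ccna2, Birc5, Nuf2, Smc4, Mad2l1 and Kif20b did not hold (adjusted p 0.0577 to 0.125). The same 6 genes were lost without wild-type replicate 2 (adjusted p 0.0523 to 0.129), and 5 of them, all but Birc5, without wild-type replicate 3. Without mutant replicate 1 the calls of Ube2c (adjusted p 0.0937), Kif20b, Ccna2, Smc4 and Mad2l1 were lost, and without mutant replicate 3 those of Ube2c (adjusted p 0.085), Kif20b and Ccna2. Kif20b and Mad2l1 were lost without empty vector replicate 1, and Kif20b without empty vector replicate 2.

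Per length, in TPM (a level scaled by gene length) computed from the counts and the table's gene lengths, Top2a was the most abundant of the 40 RNAs with empty vector, at 380 ± 21.1 TPM (SD, n = 3). Ncapd2 (237 ± 30.8), Ube2c (210 ± 19.7) and Bub3 (182 ± 21.8) came next, with overlapping spreads from 1 to the next. The lowest were Cenpe (31.9 ± 4.85), Anln (30.3 ± 4.24) and Cenpf (26.8 ± 3.53), also with overlapping spreads. All genes were measured in the same libraries, so overlapping spreads do not show that levels were alike. Differences in level between genes were not tested. With wild-type Snai1 Ube2c stood at 147 ± 38.4 TPM, behind Bub3 at 203 ± 5.36.

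The rest of the mitotic machinery was read from lists of other genes of the same structures, whose counts with wild type against empty vector stand against 25.2% called higher and 24.3% called lower among all tested genes. Other condensin and cohesin genes had 5 of 16 higher with wild type (31.2%) and 0 lower (median log2 fold change 0.11), among them the condensin subunits Ncapg2 (0.60, adjusted p 7.67e-06), Ncapg (0.46, adjusted p 0.00141) and Ncaph (0.37, adjusted p 0.000188). Other kinetochore genes had 9 of 39 higher (23.1%) and 6 lower (median -0.02), among the former Spc25 (0.56, adjusted p 3.14e-05), which completes the Ndc80 complex, Cenpi (0.59, adjusted p 0.000218) and the Mad2 partner Mad1l1 (0.47, adjusted p 0.000181). Other spindle and midbody genes had 15 of 43 higher (34.9%) and 4 lower (median 0.12), with the tubulin gene Tuba1c at 1.19 (adjusted p 0.00028) and the augmin subunits Haus6 at 0.35 (adjusted p 0.000585) and Haus1 at -0.69 (adjusted p 5.28e-05). Reads of Tuba1c are uncertain because alpha-tubulin genes are near-identical in sequence. Centrosome duplication genes had 4 of 11 higher (36.4%) and 0 lower (median 0.14), among them Stil (0.45, adjusted p 0.0115), Cep192 (0.30, adjusted p 0.000382) and Pcnt (0.22, adjusted p 0.00994).

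Against the same background of 25.2% higher and 24.3% lower, other mitotic kinases had 5 of 13 higher (38.5%) and 1 lower (median 0.07), with Pbk at 0.49 (adjusted p 0.00216), Melk at 0.47 (adjusted p 0.000621) and Mastl, which blocks the phosphatase that opposes Cdk1, at 0.33 (adjusted p 0.00463). Genes of the anaphase promoting complex and mitotic exit had 3 of 18 higher (16.7%) and 1 lower (median -0.03), with the subunits Anapc1 at 0.22 (adjusted p 0.0108), Cdc27 at 0.18 (adjusted p 0.0105) and Cdc26 at -0.23 (adjusted p 0.0184). DNA replication genes had 20 of 47 higher (42.6%) and 4 lower (median 0.10), among them Ccne1 (0.72, adjusted p 4.08e-05) and Fen1 (0.55, adjusted p 2.64e-05). With mutant Snai1, 0 genes of any of these lists were called. The median of DNA replication genes with mutant was 0.10, with 42 of 47 above 0 and 22 above all controls without overlap (8.53% of all genes), where mitosis and spindle genes had 18 of 40 above 0.

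Among regulators of G2 and M phase transcription, 8 of 20 were higher with wild type (40%, against 25.2% of all tested genes) and 4 lower (20%, against 24.3%). E2f2, an E2F factor, was at 27.0, 26.3 and 29.2 CPM with empty vector, 7.87, 6.41 and 7.72 with wild type and 24.3, 27.1 and 26.6 with mutant. It was lower in every wild-type library, replicate 1 included, by a log2 fold change of -1.91 (adjusted p 2.88e-07). Cdkn1a, the inhibitor p21 of cyclin-dependent kinases, was at 498, 476 and 454 CPM with empty vector, 1023, 1166 and 1275 with wild type and 579.5, 552 and 673 with mutant. All wild-type libraries lay above all others, with a log2 fold change of 1.28 (adjusted p 2.84e-06). The repressor E2f7 rose by 1.04 on the log2 scale (adjusted p 3.52e-06). Mybl2, which encodes B-Myb, and Foxm1 had log2 fold changes of 0.35 (adjusted p 0.0408) and 0.05 (adjusted p 0.742); both were chosen for naming as the activators of the late wave, after their values were seen.

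The counts of these lists also moved when wild-type replicate 1 or empty vector replicate 1 was left out. Without wild-type replicate 1, where 29.9% and 28.8% of all tested genes were called higher and lower, spindle and midbody genes had 26 higher and 4 lower, kinetochore genes 13 and 6, condensin and cohesin genes 7 and 0, and centrosome genes 7 and 0. Mitotic kinases then had 7 higher and 0 lower, anaphase promoting complex genes 4 and 2, DNA replication genes 23 and 4 and the regulators 9 and 6. The median changed sign for kinetochore genes (0.11) and anaphase promoting complex genes (0.03). Without empty vector replicate 1, where 20.7% and 21.3% of all tested genes were called, the same lists in that order had 11 and 3, 7 and 6, 3 and 0, 3 and 0, 3 and 0, 0 and 2, 16 and 4, and 6 and 4. Of the genes named from these lists, Anapc1 (adjusted p 0.0572), Cdc27 (adjusted p 0.0623) and Mybl2 (adjusted p 0.147) were not called without that control library, and 0 lost their call without wild-type replicate 1. Mybl2 stood at 0.49 (adjusted p 2.75e-05) and Foxm1 at 0.15 (adjusted p 0.123) without wild-type replicate 1, and at 0.28 and -0.05 without empty vector replicate 1.

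Some markers of other blood cells moved with wild-type Snai1. The counts of called markers below stand against 25.2% called higher and 24.3% called lower among all tested genes. For several of the marker lists the share called was near this background. The summed level of 10 monocyte and macrophage markers was 93.7 to 113 CPM with empty vector, 607 to 913 with wild type and 85.4 to 101 with mutant. With wild type 6 were higher and 2 lower, the lower ones being Itgam and Fcgr1. Wild-type replicate 1 was at 632, between replicate 2 at 607 and replicate 3 at 913. Lyz2 alone made up 341, 360 and 517 CPM of the sums in wild-type replicates 1 to 3. The summed level of 10 late neutrophil markers was 1.65 to 2.84 CPM with empty vector, 58.2, 96.1 and 134.5 in wild-type replicates 1 to 3 and 1.65 to 2.75 with mutant, with 2 higher. Of that sum Lcn2, the gene of lipocalin 2, made up 53.5, 84.7 and 111 CPM with wild type, and Mmp8, a collagenase gene, 1.94, 9.06 and 20.9. Of the other genes, Ly6g and Retnlg had 0 counts in all libraries, and S100a8 and S100a9 were at 0 to 0.149 CPM. The summed level of the 12 blood progenitor markers was highest in wild-type replicate 1, at 10403 CPM, against 8923 and 8784 in replicates 2 and 3 and 9011 to 9233 in the controls, with 3 of the 12 higher and 5 lower with wild type. Cd34 was at 4096, 2896 and 2830 CPM in wild-type replicates 1 to 3 and at 2114 to 2180 in the controls. The other 11 markers summed to 6307, 6028 and 5953 with wild type, below the controls at 6897 to 7053. Of 7 erythroid markers 3 were lower with wild type (summed level 9.63 to 14.3 CPM, against 16.3 to 17.4 with empty vector and 16.5 to 19.8 with mutant), and globin genes Hbb-bs, Hba-a1 and Hba-a2 had 0 counts in all libraries. Of 8 lymphocyte markers 2 were lower (0.598 to 0.930 CPM, against 3.13 to 4.02 and 2.40 to 3.78). Of 8 fibroblast and epithelial markers 1 was lower, Pdgfrb, which made up nearly all of a summed level of 320.2 to 427 CPM, against 487 to 527 and 455 to 476. The part of these cell state markers in the levels of mitosis genes was not tested.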

How the data were processed

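Libraries were made with a stranded kit that selects mRNA. The authors deposited 1 table of raw counts. The submitters' processing notes name featureCounts, the mm10 build, edgeR 3.15.0 and limma 3.29.12. A gene length column came with the counts, as deposited by the authors. The aligner, the annotation and the strand setting are not given in the sources used here. Identifiers were matched to RefSeq symbols and positions of GRCm38.p6, the assembly behind mm10, for 25275 of 27179 genes.

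The counts of all 9 libraries were fitted together by the robust quasi-likelihood method of edgeR 4.0.16 (R 4.3.3), after filterByExpr and TMM scaling. The fit held 12484 genes, with a median coefficient of biological variation of 9.05%. A gene was called at a Benjamini-Hochberg adjusted p under 0.05 over all tested genes, without a replicate block. For per-library medians, log2 CPM were computed after adding a prior count of 2. Alternatives were RLE scaling, no filter, only the groups compared, the replicate block, DESeq2 1.42.0 and leaving out each library.

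The members, the other lists and the naming rule were chosen with earlier results of these data known. The rule gave values in every library for Ccnb1, Cdk1, Plk1, Aurkb, Top2a and Mki67, and in each role for up to 3 genes with the smallest adjusted p with wild type and up to 1 in each other comparison; from each other list it named up to 3. A gene that the rule names among those of DNA replication is not reported here.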

Additional observations from a re-analysis of the deposited data

How the results depend on the processing

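Against empty vector, wild-type Snai1 gave 11 higher and 4 lower of the 40 genes with RLE and 12 and 4 with DESeq2. It gave 8 and 3 without the filter, and 7 and 1 with only the 2 groups compared. Of all tested genes, 25.8% were called higher and 23.5% lower with RLE, and 26.1% and 23.5% with DESeq2. Without the filter these shares were 17% and 17.2%, and with only the 2 groups compared 22.1% and 20.9%. Against mutant, the counts were 9 and 2 with RLE, 10 and 2 with DESeq2, 7 and 1 without the filter and 4 and 1 with only the 2 groups compared. The shares of all tested genes were 25% and 22.7% with RLE and 25.2% and 22.5% with DESeq2. They were 16.6% and 16.6% without the filter and 21.1% and 21.4% with only the 2 groups compared. For mutant against empty vector, 0 of the 40 were called under every alternative, while the genes called among all were 1 with RLE or no filter, 10 with DESeq2 and 30 with only the 2 groups compared. For wild type against empty vector, the calls of Cdk1, Ube2c, Smc4 and Bub3 were lost without the filter. With only the 2 groups compared, those of Cdk1, Incenp, Bub1b, Ube2c, Ect2, Smc4 and Kif4 were lost. Against mutant, Kif20b and Ube2c were lost without the filter. With only the 2 groups compared, Kif20b, Ube2c, Ccna2, Smc4 and Mad2l1 were lost. The cause of these shifts was not tested.

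Leaving out each library in turn, wild type against empty vector gave 4 to 22 higher and 1 to 4 lower genes and medians of -0.01 to 0.19, with 5106 to 7410 of all genes called. The fewest higher genes came without empty vector replicate 1 and the most without wild-type replicate 1, while 1 lower gene was left without empty vector replicate 2 or 3. Wild type against mutant gave 2 to 23 higher and 1 to 3 lower and medians of -0.02 to 0.20, with 4978 to 7308 of all genes. Mutant against empty vector gave 0 of the 40, medians of -0.04 to 0.03, and 1 to 62 of all genes, the most without wild-type replicate 1. Kif11 against mutant, -0.01 with all libraries, ran from -0.10 to 0.12, the highest without wild-type replicate 1 (adjusted p 0.0466). Other changes on leaving out a library were not tested for a cause. A setting without both empty vector replicate 1 and wild-type replicate 1 was chosen after seeing the data. In it, 17 and 5 genes were higher and lower with wild type than with empty vector (28% and 28.7% of all tested genes). Against mutant, 22 and 2 were higher and lower with wild type (28.9% and 29.3% of all tested genes). With mutant against empty vector, 29 of all genes were called.

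With the replicate block, 12 genes were higher and 4 lower with wild type (Hmmr added), 9 and 3 against mutant (Bub1b and Smc2 added), and 0 with mutant; of all genes 5886, 5732 and 1 were called. After removal of group means, libraries of the same number correlated at -0.0873 to 0.21, with 2 of 9 pairs above 0.1, and libraries of different numbers at -0.165 to 0.117; 4 of 9 libraries were most like a library of their own number. The numbers were therefore not read as pairs. Every one of the 40 genes had at least 468 counts per library. The chi-square per degree of freedom sets the spread between replicates against counting error over all genes. For the 40 genes alone this was not done.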
